A study of Solanum lycopersicum with 24 samples.

Results

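Transcripts of type VI gland cells were compared between the tomato (Solanum lycopersicum) mutant af and CHI4, a line in which the mutant had been complemented. The comparison takes the 4 af and the 4 CHI4 libraries, 8 of the 12 libraries of the series. The other 4 libraries, of the second complemented line CHI9, entered the same model and are set beside CHI4 where the lines differed. Members were chosen by the genotype in the labels, and each library is the sum of its 2 sequencing lanes. The plants of all 3 genotypes had grown in potted soil for 5 weeks at 28 °C and 250 µE of light. Gland cells of leaf trichomes were collected on 4 occasions, and each occasion gave 1 library per genotype, so that libraries of a collection form a pair. The sources used here give neither the promoter of the introduced gene, nor the plants in a collection, nor how many transformants the name CHI4 covers. The labels say only mutant and complemented. It is general knowledge that af (anthocyanin free) lacks a working chalcone isomerase.

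Type VI trichomes are hairs whose 4 head cells fill a storage space with volatile terpenes and also hold flavonols. Terpenes are built from 5-carbon units, which the methylerythritol phosphate (MEP) pathway makes in the plastid and the mevalonate pathway in the cytosol. Prenyl transferases join these units, and terpene synthases turn the products into monoterpenes, mostly in the plastid, and into sesquiterpenes, many of them, such as those of TPS12, in the cytosol. Flavonoids follow another route, from phenylalanine through chalcone synthase, which makes a yellow chalcone, and chalcone isomerase (CHI), which closes it into a flavanone, to flavonols and anthocyanins. Complementation puts the isomerase step back, so af against CHI4 asks which transcripts differ between gland cells without and with it.

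The libraries held 20.9 to 70.9 M gene counts in af and 34.0 to 52.0 M in CHI4. Levels are given as counts per M (CPM), scaled by TMM, a method that sets libraries level on the bulk of their genes, whose factors were between 1.10 and 1.28 for af libraries and between 0.853 and 0.955 for CHI4 libraries. The 100 most abundant genes took a smaller share of the counts in af, 34.0% ± 2.36 against 45.2% ± 2.03 in CHI4 (SD, n = 4 each), with no overlap of the libraries (two-sided exact permutation p = 0.0286, the smallest that 70 arrangements allow). Tested over the 4 pairs within collections, the exact p was 0.125, the smallest that 16 arrangements allow, so the difference did not pass there, where no result could. Between the lanes of a library the chi-square per degree of freedom was 1.91 to 2.02, above the value for counting noise alone. In collection 4 it was higher still (7.20 in af and 5.19 in CHI4), and there the lane ratio varied with the chromosome. The causes were not tested. With lane 2 alone for collection 4, 1603 genes were higher and 2075 lower, against the 1588 and 2049 given below. With every count halved, 1723 were higher and 2093 lower. Markers of the labelled cell type (NDPS1, TPS12, TPS17, TPS19/20 and MYC1) were present in every library, with summed levels of 3894 to 5155 CPM in af and 19578 to 26896 CPM in CHI4. NDPS1, TPS12 and TPS19/20 made up most of these sums. Of the 5 markers 4 were called lower in af, all but MYC1, so the sums do not measure the amount of gland cells. In RNA of many cells, fewer cells of a type and less RNA per cell cannot be told apart.

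The mutant and the complemented line differed in 19.8% of the genes tested, and with TMM 55 of the 99 genes over 1000 CPM were called lower in af. Of 18326 genes tested, 1588 (8.67%) were higher and 2049 (11.2%) were lower in af (edgeR quasi-likelihood test, Benjamini-Hochberg adjusted p under 0.05). By at least 2-fold, 860 rose and 915 fell, and by at least 8-fold 157 rose and 94 fell. All 4 af libraries lay above all 4 CHI4 libraries in 1414 of the 1588 higher genes, and below them in 1846 of the 2049 lower genes, where 14.8% and 13.3% of all genes tested did so. A fit that takes the collection as a block called 25.0% of the genes, 2084 of them higher and 2495 lower in af, and 3604 of the 3637 calls stayed.

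The balance between higher and lower genes rests on the scaling. Scaled by library totals alone, an alternative chosen after seeing the data, the median log2 difference of all genes moved by 0.46, to 0.54 against 0.08 with TMM. On that scale 5704 genes were higher and 862 lower, so that higher genes made up 86.9% of the calls, against 43.7% with TMM. All 1588 higher genes stayed called, 861 of the 2049 lower genes stayed called, and 67 of the lower genes turned positive. Changes below are relative to the bulk of genes as TMM sets it, and a gene is marked where library totals turn its direction or end its call.

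**Figure D1:**
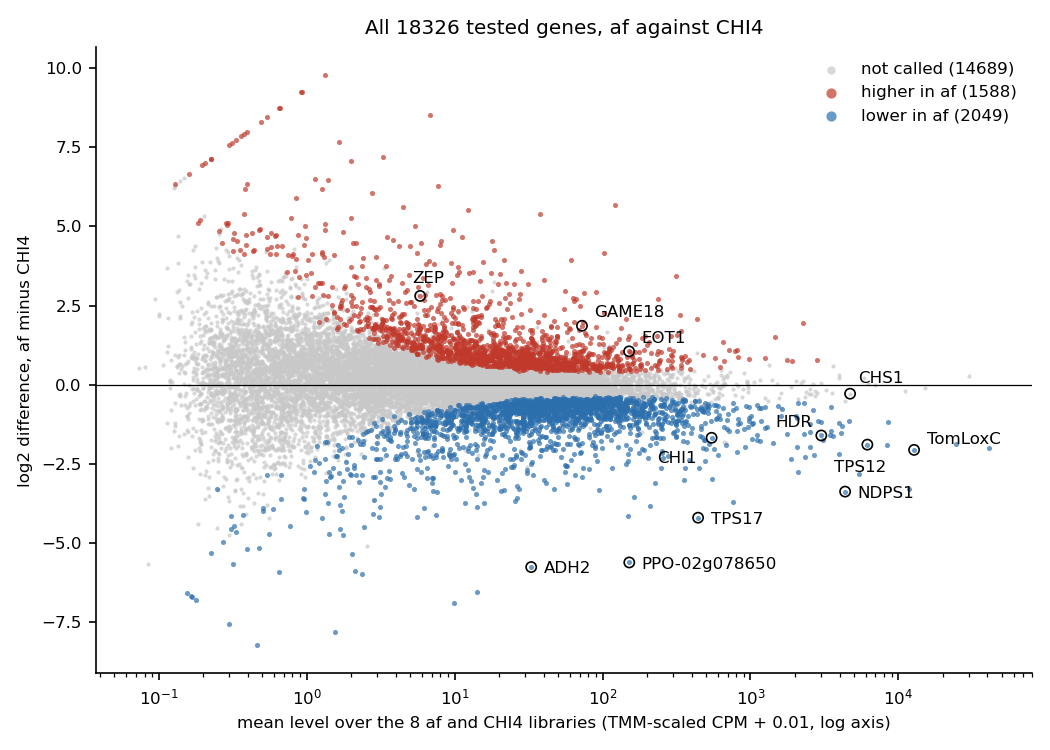
Each point is 1 of 18326 genes, with its mean level over the 8 libraries on a log axis (CPM + 0.01) and its log2 difference, af minus CHI4. Red genes (1588) were called higher and blue genes (2049) lower in af, and circled genes are named in the text. The blue side holds most of the genes over 1000 CPM, among them TomLoxC, TPS12, NDPS1 and HDR, while CHS1 lies near 0.

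Genes of low level were more often higher in af, and genes of high level more often lower. Under a mean of 1 CPM, 66 of 2761 genes were higher (2.39%) and 30 lower (1.09%), and from 1 to 10 CPM 7.35% were higher and 4.85% lower. From 100 to 1000 CPM, 133 of 1201 genes were higher (11.1%) and 451 lower (37.6%). Over 1000 CPM, 6 of 99 genes were higher (6.06%) and 55 lower (55.6%), with a median log2 difference of -0.73. These shares are a description without a test, and the power to call a gene grows with its level in both directions.

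**Figure D2:**
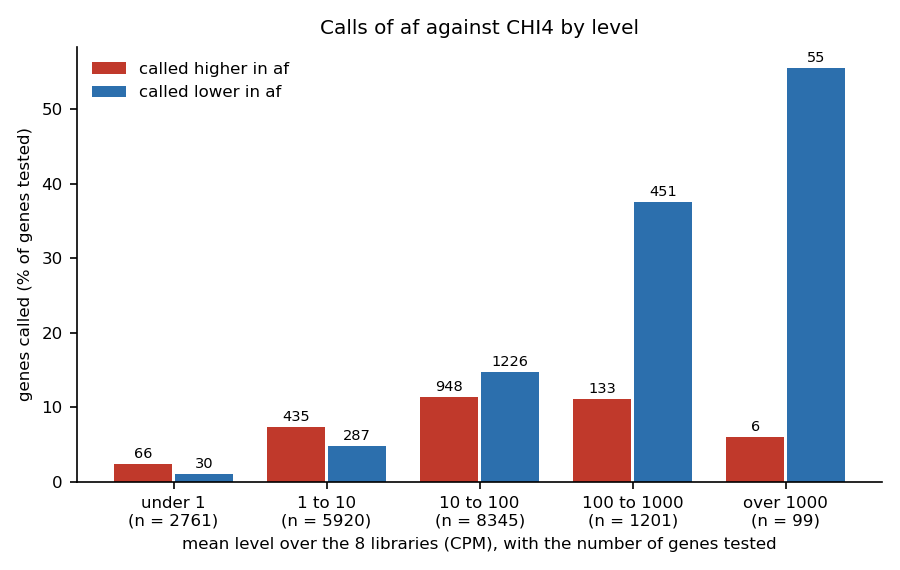
Bars give the share of tested genes called higher (red) and lower (blue) in af, in percent, in 5 classes of mean level in CPM, with the number of called genes above each bar. The lower share grows to 55.6% over 1000 CPM, where 6.06% of genes were higher.

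The gene of the isomerase step itself, CHI1 (Solyc05g010320), was transcribed in the mutant and more so in the complemented line. It had 211, 252, 339.8 and 239 CPM in the 4 af libraries, against 418, 1167, 725 and 1014 CPM in the 4 CHI4 libraries. The groups did not overlap, and the CHI4 libraries spread further than the af libraries. CHI1 fell by 1.67 on the log2 scale in af, which is 3.19-fold more in CHI4 (SE 0.25, edgeR adjusted p = 0.000114). The counts do not tell transcripts of an introduced copy from those of the native gene.

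Around that step, the enzymes that make flavonols were abundant in both genotypes and most did not pass the test. Of 12 flavonoid genes tested 3 were lower and 0 higher (background 11.2% and 8.67%), with a median log2 difference of -0.27 against 0.08 for all genes. The chalcone synthase CHS1 (Solyc09g091510) had 3398, 3609, 5132 and 4874 CPM in af, against 3835, 5163, 5739 and 5953 CPM in CHI4, lower in af in 4 of 4 collections, and the libraries overlapped. CHS1 had a log2 difference of -0.28 (SE 0.21, edgeR adjusted p = 0.379) and CHS2 (Solyc05g053550) one of -0.26 (adjusted p = 0.407), and both turned positive on library totals (0.17 and 0.19). Flavanone 3-hydroxylase (F3H, Solyc02g083860), which acts next after CHI, had 2256 ± 373 CPM in af and 2165 ± 357 CPM in CHI4 (SD, n = 4 each), a log2 difference of 0.06. On library totals F3H stood at 0.51 and was called higher (edgeR adjusted p = 0.0248). Flavonoid 3'-hydroxylase (Solyc03g115220) had 0.12 and flavonol synthase (FLS, Solyc11g013110) -0.12, neither called, and FLS was at 0.32 on library totals.

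Both sugar transferases of the list fell. The anthocyanin rhamnosyltransferase (Solyc09g059170), which adds rhamnose to anthocyanin glucosides, had 1962, 1749, 2264 and 1762 CPM in af, against 3469.5, 3674, 3206 and 3028 CPM in CHI4, with every af library below every CHI4 library. It fell by 0.79 on the log2 scale (SE 0.16, edgeR adjusted p = 0.00172), and library totals ended that call (log2 -0.34, adjusted p = 0.0793). Flavonoid 3-O-glucosyltransferase (Solyc10g083440), which puts glucose on flavonoids, had 142 ± 34.4 CPM in af and 233 ± 48.2 CPM in CHI4 (SD, n = 4 each) and fell by 0.71 (SE 0.20, edgeR adjusted p = 0.0152). That call did not hold on library totals (log2 -0.27) or without CHI4 replicate 2 (0.0565), af replicate 1 (0.0559) or af replicate 2 (0.0569), where, as in like lists below, the adjusted p without that library stands in parentheses. The chalcone isomerase-like gene CHIL (Solyc05g052240), whose protein helps chalcone synthase but closes no ring, had 1204 ± 649 CPM in af and 2011 ± 470.0 CPM in CHI4 (SD, n = 4 each), lower in 4 of 4 collections. Its adjusted p was 0.199 without a block and 0.000166 with the collection as a block. Flavonoid 3'5'-hydroxylase (Solyc11g066580), which leads to delphinidin-type pigments, was scarce, at 0.623 ± 0.615 CPM in af and 2.17 ± 1.27 CPM in CHI4 (SD, n = 4 each) (adjusted p = 0.0757, and 0.0125 with the block). The anthocyanin enzymes dihydroflavonol reductase (DFR, Solyc02g085020) and anthocyanidin synthase (ANS, Solyc08g080040) were scarce as well, at 1.97 CPM in af and 0.614 CPM in CHI4 for DFR and 4.68 CPM in af and 2.94 CPM in CHI4 for ANS, and were not called (adjusted p = 0.289 and 0.27). On library totals ANS was called higher (log2 1.12, edgeR adjusted p = 0.0419).

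Upstream of chalcone synthase, 1 of 8 phenylpropanoid genes tested was higher and 2 were lower, where 8.67% and 11.2% of all genes were. Phenylalanine ammonia-lyase (PAL), which starts the route, is encoded by several loci. The PAL locus Solyc10g086180 had 85.7, 130.0, 235 and 160.3 CPM in af, against 199.6, 657, 459.5 and 597 CPM in CHI4, with af lower in 4 of 4 collections, and fell by 1.65 (SE 0.39, edgeR adjusted p = 0.00998). The PAL locus Solyc09g007900 had 349 ± 67.4 CPM in af and 234 ± 33.8 CPM in CHI4 (SD, n = 4 each) and rose by 0.58 (SE 0.18, edgeR adjusted p = 0.0261), a call lost without CHI4 replicate 1 (0.094), CHI4 replicate 4 (0.0636), af replicate 2 (0.071) or af replicate 4 (0.103). PAL copies are similar, and reads that align to several of them were left out of the counts, so these values are uncertain. A cinnamate 4-hydroxylase locus (Solyc05g047530), the step after PAL, had 0 counts over the 4 af libraries and 84 counts over the 4 CHI4 libraries, at least 42.6-fold more against a floor of 3 counts over the af libraries (adjusted p = 0.00428). Among 5 regulators of flavonoid genes tested 1 rose (8.67% of all genes did), MYB12 (Solyc01g079620), which activates flavonol genes, with 198, 180.3, 136 and 160.1 CPM in af, against 69.2, 141, 62.4 and 109 CPM in CHI4. MYB12 rose by 0.82 (SE 0.22, edgeR adjusted p = 0.0122), higher in 4 of 4 collections, although 1 CHI4 library lay above the lowest af library. HY5 (Solyc08g061130), a light-response factor, had 39.2 ± 19.9 CPM in af and 23.2 ± 5.69 CPM in CHI4 (SD, n = 4 each) (adjusted p = 0.109). On library totals HY5 was called higher (log2 1.24, edgeR adjusted p = 0.0153).

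The MEP pathway, which makes the 5-carbon units of plastid terpenes, had a gene called lower in af at every step. Of its 8 genes 7 fell and 0 rose (background 11.2% and 8.67%), with a median log2 difference of -1.32. The libraries did not overlap in any of the 7, where 13.3% of all genes tested had every af library below every CHI4 library. The first enzyme is 1-deoxyxylulose 5-phosphate synthase, and DXS2 (Solyc11g010850), its trichome form, had 1367, 1346, 2470.3 and 1936 CPM in af, against 3913, 2737, 4826 and 4304 CPM in CHI4. It fell by 1.15 on the log2 scale (SE 0.24, edgeR adjusted p = 0.00184). The housekeeping copy DXS1 (Solyc01g067890) had 64.6 ± 6.97 CPM in af and 75.4 ± 4.58 CPM in CHI4 (SD, n = 4 each), a log2 difference of -0.22 that was not called (adjusted p = 0.292) and was 0.25 on library totals. The reductoisomerase DXR (Solyc03g114340), the second step, had 468, 486, 708 and 559.7 CPM in af, against 1855, 989.7, 1944 and 1877 CPM in CHI4. In DXR the CHI4 library of collection 2 lay well below the other CHI4 libraries and still above every af library, and the gene fell by 1.58 (SE 0.23, edgeR adjusted p = 5.72e-05).

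The middle and late MEP steps were lower as well. The cytidyl transferase MCT (Solyc01g102820) had 101 ± 10.8 CPM in af and 179 ± 20.8 CPM in CHI4 (SD, n = 4 each) and fell by 0.83. The kinase CMK (Solyc01g009010) had 179 ± 13.9 CPM in af and 518 ± 103 CPM in CHI4 (SD, n = 4 each) and fell by 1.53. The cyclase MDS (Solyc08g081570) had 256 ± 38.6 CPM in af and 667 ± 171 CPM in CHI4 (SD, n = 4 each) and fell by 1.38. The synthase HDS (Solyc11g069380) had 1492 ± 163 CPM in af and 3545 ± 684 CPM in CHI4 (SD, n = 4 each) and fell by 1.25. The last enzyme, the reductase HDR (Solyc01g109300), had 1584, 1524, 1557 and 1307 CPM in af, against 4479.9, 4096, 4589.6 and 4954 CPM in CHI4. HDR fell by 1.60 (SE 0.16, edgeR adjusted p = 1.14e-06), the largest fall of the pathway. All 7 calls stayed on library totals, where HDR was at -1.13 and MCT, the smallest, at -0.37 (adjusted p = 0.0489).

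The next enzymes, which isomerise and join the 5-carbon units, fell in 4 of 5 genes tested, with 0 higher (background 11.2% and 8.67%). Isopentenyl diphosphate isomerase (IDI, Solyc04g056390) had 2389.9 ± 332 CPM in af and 5513 ± 258 CPM in CHI4 (SD, n = 4 each) and fell by 1.21 (SE 0.16, edgeR adjusted p = 1.86e-05). Neryl diphosphate synthase (NDPS1, Solyc08g005680) makes the cis precursor of the monoterpenes of this gland. It had 635, 625, 923 and 886 CPM in af, against 8936, 6844, 7306 and 8744 CPM in CHI4, so that the highest af library stood far below the lowest CHI4 library. NDPS1 was 10.4-fold more abundant in CHI4, and in af it fell by 3.37 on the log2 scale (SE 0.19, edgeR adjusted p = 1.04e-09). The geranylgeranyl diphosphate synthases GGPPS2 (Solyc04g079960) and GGPPS3 (Solyc02g085700), which make the precursor of carotenoids and chlorophyll side chains, fell by 2.15 and 1.40, with 26 CPM in af and 116 CPM in CHI4 for GGPPS2 and 27.5 CPM in af and 72.8 CPM in CHI4 for GGPPS3.

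Of 10 terpene synthases tested 9 fell and 0 rose (background 11.2% and 8.67%), with a median log2 difference of -2.58. The sesquiterpene synthase TPS12 (Solyc06g059930), which makes caryophyllene and humulene, was the most abundant, with 2458, 2235, 2861 and 2924 CPM in af, against 11728, 8209, 8827 and 10095 CPM in CHI4. TPS12 fell by 1.89 (SE 0.17, edgeR adjusted p = 3.24e-07). The monoterpene synthase locus TPS19/20 (Solyc08g005670), whose enzymes turn neryl diphosphate into phellandrene, had 540.0, 377, 724 and 525 CPM in af, against 4292, 3136, 3581 and 3503 CPM in CHI4 and fell by 2.74 (SE 0.21, edgeR adjusted p = 3.2e-08). TPS19 and TPS20 are near-identical copies. Reads that align to both were left out of the counts and others may be given to the wrong copy, so the value is uncertain. TPS17 (Solyc12g006570), a sesquiterpene synthase, had 57.8, 47.2, 51.3 and 26.3 CPM in af, against 1299, 669, 574 and 813 CPM in CHI4. It fell by 4.20 (SE 0.28, edgeR adjusted p = 1.7e-08), 18.4-fold more in CHI4 and the fifth largest fall among genes averaging at least 5 CPM whose libraries did not overlap.

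The other terpene synthases were lower by smaller or larger folds at lower levels. TPS18 (Solyc08g005640) and TPS21 (Solyc08g005720) lie close to NDPS1 on chromosome 8, and they fell by 2.42 (28.8 CPM in af and 154 CPM in CHI4) and 2.10 (96 CPM in af and 410.2 CPM in CHI4). TPS33 (Solyc01g101170) fell by 3.58 (4.04 CPM in af and 49 CPM in CHI4), and TPS39 (Solyc10g005390) fell by 3.38 (1.33 CPM in af and 13.7 CPM in CHI4). TPS5 (Solyc01g105890), a linalool synthase, had 139 ± 12.9 CPM in af and 359 ± 86.8 CPM in CHI4 (SD, n = 4 each) and fell by 1.37. In each of these 5 genes every af library lay below every CHI4 library, which held in 13.3% of all genes tested. TPS3 (Solyc01g105870) had 0 counts in af and at most 0.648 CPM in CHI4, at least 21.5-fold more over the group (adjusted p = 0.0342). Its call was lost without any 1 of the 4 af libraries or of the CHI4 libraries of collections 1, 2 and 4 (adjusted p = 0.0501 to 0.0829), and 1 CHI4 library also had 0 counts. TPS8 (Solyc01g105850) had 109 ± 38.6 CPM in af and 146 ± 50.9 CPM in CHI4 (SD, n = 4 each) and was not called (log2 -0.43, adjusted p = 0.346, and 0.017 with the block), with 0.03 on library totals.

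**Figure D3:**
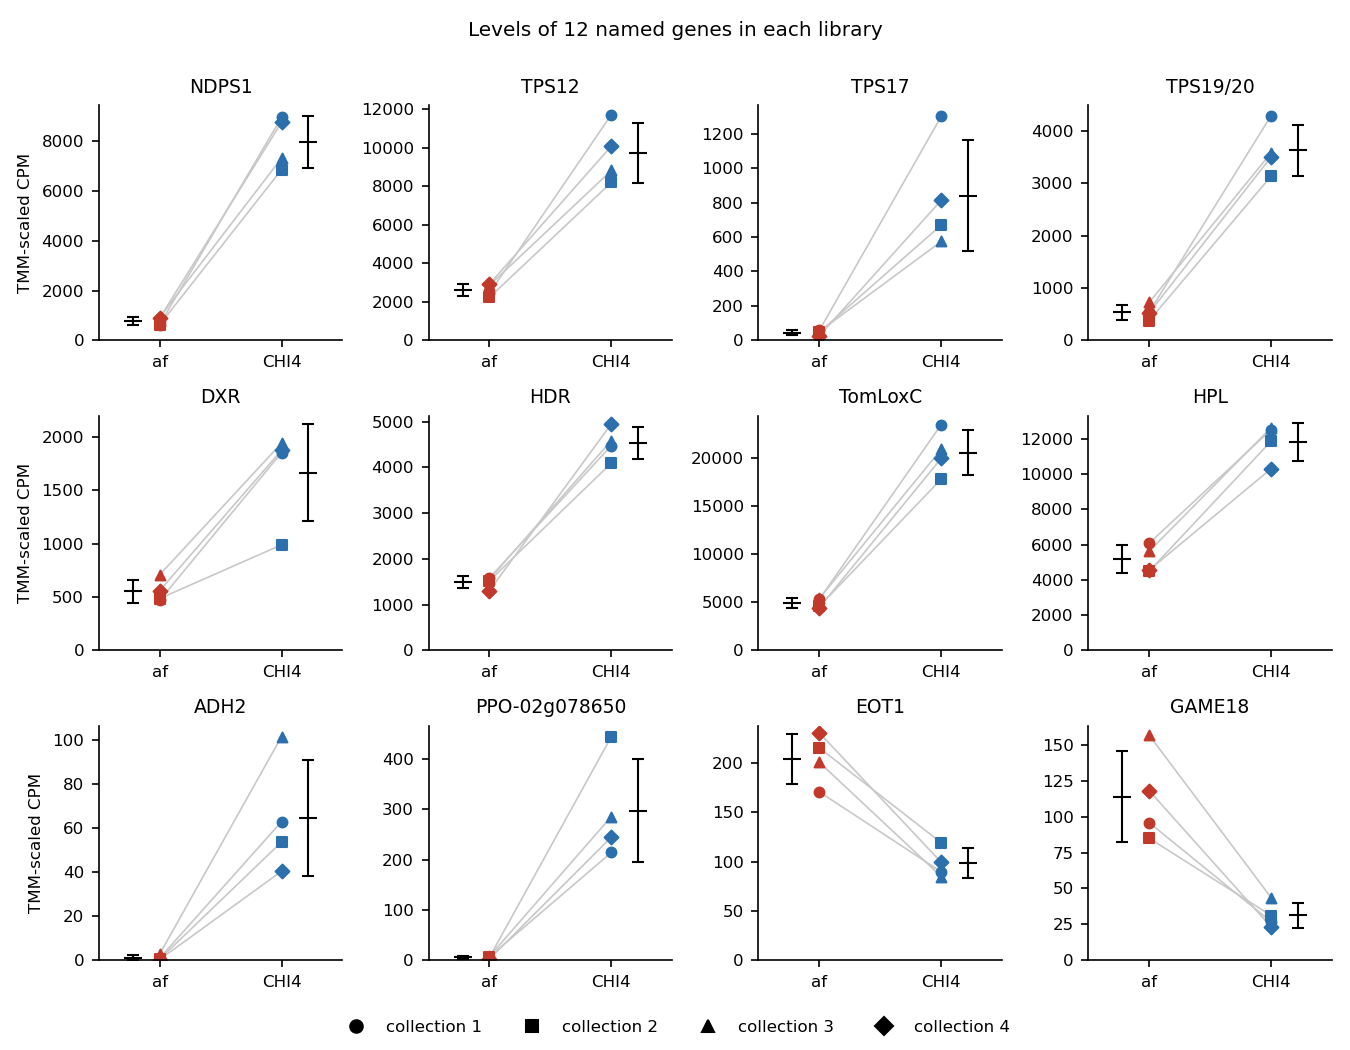
Levels of 12 genes in TMM-scaled CPM (each panel has its own axis from 0), with af on the left, CHI4 on the right and a grey line joining the libraries of a collection. Bars beside the points give the mean ± SD of 4 libraries. In the first 10 panels all af libraries lie below all CHI4 libraries, for example 625 to 923 CPM against 6844 to 8936 CPM for NDPS1, and in EOT1 and GAME18 they lie above.

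The cytosolic mevalonate pathway, which supplies sterols and cytosolic isoprenoids, gave 0 calls by edgeR in 6 genes tested, with a median log2 difference of 0.01. At an unadjusted p under 0.05 there was 1, by DESeq2 0, by limma-voom 0, on library totals 3, all higher, and with the collection as a block 1 higher and 1 lower. HMG-CoA reductase locus Solyc03g032020 had 97.3, 182, 293 and 195 CPM in af, against 116, 117, 129.5 and 115 CPM in CHI4. Its libraries overlapped (log2 0.68, adjusted p = 0.124, and 0.0447 with the block). Whether the MEP and mevalonate lists differ from each other was not tested.

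Green leaf volatiles are the C6 aldehydes and alcohols cut from fatty acids when leaves are wounded. All 3 genes of that list fell, where 11.2% of all genes tested did. The lipoxygenase TomLoxC (Solyc01g006540), which oxidises the fatty acid, had 5327, 4588, 5410.3 and 4459.9 CPM in af, against 23520.4, 17847, 20949.9 and 20007 CPM in CHI4. It was among the 10 most abundant of the lower genes and fell by 2.06 (SE 0.18, edgeR adjusted p = 1.55e-07). Hydroperoxide lyase (HPL, Solyc07g049690), which cuts the product into a C6 aldehyde, had 6081, 4495, 5628 and 4556 CPM in af, against 12527, 11874, 12637 and 10311 CPM in CHI4 and fell by 1.19 (SE 0.18, edgeR adjusted p = 6.36e-05). Alcohol dehydrogenase ADH2 (Solyc06g059740), which reduces such aldehydes to alcohols, had 0.991, 0.539, 2.81 and 0.392 CPM in af, against 62.9, 53.7, 101 and 40.4 CPM in CHI4. ADH2 fell by 5.76, 54.1-fold more in CHI4 (SE 0.76, edgeR adjusted p = 0.000457). All 3 falls stayed on library totals, where HPL, the smallest, was at -0.73.

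Jasmonate, the wound hormone, also starts from fatty acids oxidised by a lipoxygenase, for which the list holds LOXD. Of 10 jasmonate genes 2 fell and 0 rose, with a median of 0.03, where 11.2% of all genes tested were lower and 8.67% higher. Allene oxide synthase AOS2 (Solyc11g069800), the step after the lipoxygenase, had 43.2, 46.4, 41.5 and 46.8 CPM in af, against 189, 79, 136 and 124 CPM in CHI4 and fell by 1.57 (SE 0.24, edgeR adjusted p = 0.000114). Allene oxide cyclase (AOC, Solyc02g085730), which follows it, had 22.8 ± 2.88 CPM in af and 51 ± 5.98 CPM in CHI4 (SD, n = 4 each) and fell by 1.16 (SE 0.17, edgeR adjusted p = 5.84e-05). LOXD, the later enzymes, the receptor COI1 and the repressors JAZ1 and JAZ2 were not called.

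Polyphenol oxidases, copper enzymes that brown and harden trichome exudate around insects, fell in 2 of 3 genes tested (background 11.2%). The abundant locus Solyc08g074620 had 2482, 2146, 2163 and 1721 CPM in af, against 5924, 5888, 6204 and 6362 CPM in CHI4 and fell by 1.52 (SE 0.17, edgeR adjusted p = 2.33e-06). The locus Solyc02g078650 had 7.26, 6.11, 7.84 and 2.82 CPM in af, against 214, 444, 285 and 245 CPM in CHI4, and fell by 5.61 (SE 0.38, edgeR adjusted p = 2.58e-07), 48.9-fold more in CHI4. By the same measure it was the fourth largest fall, just after ADH2. Neighbouring PPO copies on chromosome 8 may lose reads that align to several of them.

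Acylsugars are sticky esters made in the tip cells of another trichome type. Of 6 of their genes tested 3 fell and 0 rose (background 11.2% and 8.67%). The acyltransferase ASAT3 (Solyc11g067270), which adds an acyl chain, had 9.29, 11.7, 21.8 and 9.83 CPM in af, against 77, 51.3, 60.3 and 61.1 CPM in CHI4 and fell by 2.25 (SE 0.23, edgeR adjusted p = 1.18e-06). IPMS3 (Solyc08g014230), an isopropylmalate synthase that shapes the acyl chains, had 25.7 ± 4.86 CPM in af and 50.0 ± 5.98 CPM in CHI4 (SD, n = 4 each) and fell by 0.96 (SE 0.18, edgeR adjusted p = 0.000777). The acyl-CoA synthetase AACS1 (Solyc07g043630) was scarce, at 0.356 ± 0.147 CPM in af and 2.47 ± 1.32 CPM in CHI4 (SD, n = 4 each), and fell by 2.76 (SE 0.75, edgeR adjusted p = 0.0125). AECH1 (Solyc07g043680), an enoyl-CoA hydratase beside it, had 0.0446, 0.603, 2.58 and 0.0784 CPM in af, against 3.73, 3.3, 5.34 and 2.87 CPM in CHI4 (adjusted p = 0.0994, and 0.00373 with the block). The summed level of the tip cell markers ASAT1 to ASAT4 ran from 9.76 to 21.8 CPM in af and from 53.5 to 78.8 CPM in CHI4. ASAT3 made up most of it and was the 1 of the 4 that was called, and 0 of the 4 were at 0 in either genotype. Their part in the other results was not tested.

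Of 9 genes tested for steroidal glycoalkaloids, the bitter defence compounds of tomato, 4 were lower and 1 was higher. The 1 higher gene is near the 8.67% of all genes tested that were higher, and 11.2% of all were lower. GAME6 (Solyc07g043460), an oxidase early on the route from cholesterol, had 34.9, 32.7, 40.5 and 35 CPM in af, against 181, 108, 135 and 111 CPM in CHI4 and fell by 1.90 (SE 0.18, edgeR adjusted p = 3.75e-07). GAME11 (Solyc07g043420), a dioxygenase, had 6.42 ± 1.27 CPM in af and 15.6 ± 3.85 CPM in CHI4 (SD, n = 4 each) and fell by 1.28, and the aminotransferase GAME12 (Solyc12g006470) had 31.5 ± 3.27 CPM in af and 113 ± 17.8 CPM in CHI4 (SD, n = 4 each) and fell by 1.84. The sugar transferase GAME17 (Solyc07g043480), which adds glucose, had 2.07, 1.54, 1.2 and 0.901 CPM in af, against 16.3, 13.2, 10.6 and 10.3 CPM in CHI4 and fell by 3.12 (SE 0.33, edgeR adjusted p = 1.76e-06). Its neighbour on chromosome 7, GAME18 (Solyc07g043500), which adds a further glucose, had 95.8, 84.9, 157 and 118 CPM in af, against 26.9, 31.2, 43.7 and 23.3 CPM in CHI4. GAME18 rose by 1.86, 3.64-fold (SE 0.28, edgeR adjusted p = 0.000231), with every af library above every CHI4 library.

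Carotenoid genes, which use the geranylgeranyl diphosphate named above, were lower in 5 and higher in 1 of 13 tested, with a median of -0.22. Over all genes tested 11.2% were lower and 8.67% higher, so 1 higher of 13 is near that share. The desaturases PDS (Solyc03g123760) and ZDS (Solyc01g097810), which colour the carotenoid chain, had 178 ± 5.26 CPM in af and 324 ± 53.4 CPM in CHI4 (SD, n = 4 each) and 89.2 ± 11.1 CPM in af and 213 ± 17.5 CPM in CHI4 (SD, n = 4 each), and fell by 0.87 and 1.26. The isomerase CRTISO (Solyc10g081650) had 55.7 CPM in af and 87.2 CPM in CHI4 and fell by 0.65. The cyclase LCYB (Solyc04g040190) had 28.7 CPM in af and 44.6 CPM in CHI4 and fell by 0.64, and the cleavage enzyme CCD1B (Solyc01g087260) had 855 CPM in af and 1430.5 CPM in CHI4 and fell by 0.74. These 3 calls ended on library totals (log2 -0.18, -0.18 and -0.27), where the list stood at 3 higher and 2 lower, and LCYB was also lost without CHI4 replicate 2 (0.0577) or af replicate 1 (0.0508). Zeaxanthin epoxidase (ZEP, Solyc02g090890), which makes violaxanthin, went the other way, with 6.34, 10.4, 10.4 and 13.8 CPM in af, against 0.414, 0.894, 2.37 and 2.12 CPM in CHI4. ZEP rose by 2.81, 6.99-fold (SE 0.51, edgeR adjusted p = 0.000505).

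Among transcription factors of trichomes, 2 of 5 tested rose and 0 fell, where 8.67% of all genes were higher. EOT1 (Solyc02g062400), a zinc finger factor known to activate TPS5, had 170.5, 215, 200.4 and 230.2 CPM in af, against 89.6, 119, 84.9 and 99.3 CPM in CHI4. EOT1 rose by 1.05 (SE 0.15, edgeR adjusted p = 5.81e-05), while TPS5 was among the genes that fell. HD8 (Solyc03g031760), a homeodomain factor of trichome growth, had 67 ± 11.3 CPM in af and 43.6 ± 9.38 CPM in CHI4 (SD, n = 4 each) and rose by 0.62 (SE 0.19, edgeR adjusted p = 0.0226), a call lost without CHI4 replicate 1 (0.0856), CHI4 replicate 3 (0.0773), af replicate 2 (0.0623) or af replicate 3 (0.0702). MYC1 (Solyc08g005050), which is needed for type VI glands and their terpenes, had 722, 609, 583 and 794 CPM in af, against 641, 719, 589 and 693 CPM in CHI4. The MYC1 libraries overlapped, and its log2 difference of 0.04 had an SE of 0.15 (adjusted p = 0.9). On library totals MYC1 stood at 0.50 and was called (adjusted p = 0.0186). The cuticle and trichome factor CD2 (Solyc01g091630) had 46.8 ± 4.99 CPM in af and 33.5 ± 7.63 CPM in CHI4 (SD, n = 4 each) (adjusted p = 0.0586, and 0.0328 with the block).

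Photosynthesis genes mark green cells but are also used by the gland cells themselves. Of 9 tested 5 fell and 0 rose (background 11.2% and 8.67%). The Rubisco small subunit locus Solyc02g063150 had 24.1, 34.2, 31.3 and 26.2 CPM in af, against 103, 85.1, 114 and 124 CPM in CHI4 and fell by 1.88 (SE 0.16, edgeR adjusted p = 9.82e-08), while the locus Solyc03g034220, the most abundant of the list in af, had 228 ± 31.6 CPM in af and 261 ± 21.9 CPM in CHI4 (SD, n = 4 each) and was not called (log2 -0.20, adjusted p = 0.361, log2 0.28 on library totals). Of the light-harvesting chlorophyll-binding genes, Solyc02g070940 fell by 1.65 (110.3 CPM in af and 347 CPM in CHI4) and Solyc03g005760 by 1.57 (88.5 CPM in af and 263 CPM in CHI4). Its neighbours Solyc03g005770 and Solyc03g005780 had log2 differences of -2.22 and -3.09, both called, at lower levels. These copies are near-identical and may lose reads that align to several of them. Summed over the 12 green-cell markers, of which 5 were called, all lower in af, levels ran from 376 to 540 CPM in af and from 964 to 1144 CPM in CHI4, and 0 of the 12 were at 0 in either genotype. Of 4 epidermal markers 1 was called, CER6, which was higher in af and made up most of their summed level of 110.9 to 136 CPM in af and 48.7 to 83.0 CPM in CHI4. CD3, GPAT6 and CD1 were not called, and 0 of the 4 were at 0. The phloem marker SUT1 stood at 0.0891 to 1.64 CPM in af and 0.350 to 1.26 CPM in CHI4. The part of these cell types in the results was not tested.

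The 1 epidermal gene that rose was CER6 (Solyc02g085870), which lengthens fatty acids for cuticular wax. CER6 had 101, 86, 92.9 and 119.6 CPM in af, against 42.2, 66.6, 41.1 and 40.5 CPM in CHI4, and rose by 1.07 (SE 0.17, edgeR adjusted p = 0.000128). It was the 1 call among 5 cuticle genes tested, where 8.67% of all genes were higher. The wax regulator SHN1 (Solyc03g116610) had 5.89 ± 2.3 CPM in af and 10.6 ± 3.94 CPM in CHI4 (SD, n = 4 each) (adjusted p = 0.071, and 0.0393 with the block).

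Enzymes that remove reactive oxygen were lower in 3 of 8 genes tested, with 0 higher (background 11.2% and 8.67%). The catalases CAT2 (Solyc02g082760) and CAT3 (Solyc04g082460), which split hydrogen peroxide, had 242 ± 23.6 CPM in af and 455 ± 66.5 CPM in CHI4 (SD, n = 4 each) and 223 ± 10.2 CPM in af and 429.8 ± 23.5 CPM in CHI4 (SD, n = 4 each), and fell by 0.91 and 0.95. Superoxide dismutase locus Solyc11g066390 had 44.1, 46.3, 35.2 and 45.1 CPM in af, against 86.8, 70.2, 84.2 and 104 CPM in CHI4 and fell by 1.01 (SE 0.15, edgeR adjusted p = 8.95e-05). Ascorbate peroxidase APX1 (Solyc06g005160) had 519.7 ± 106 CPM in af and 688 ± 182 CPM in CHI4 (SD, n = 4 each) (adjusted p = 0.182, 0.0445 with the block, and log2 0.07 on library totals). The 3 falls stayed on library totals, where the list stood at 2 higher and 3 lower.

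Of 9 heat shock genes 1 rose and 0 fell, a share near the 8.67% of all genes that were higher. HsfB1 (Solyc02g090820), a heat shock factor, had 48.3, 50.2, 27.2 and 38.5 CPM in af, against 21.7, 21.7, 14.7 and 24.2 CPM in CHI4 and rose by 1.00 (SE 0.26, edgeR adjusted p = 0.0108). The chaperone HSP101 (Solyc03g115230) had 48.2, 146, 17.1 and 125 CPM in af, against 12.5, 50.8, 11.9 and 54.2 CPM in CHI4. HSP101 was higher in af in 4 of 4 collections, with wide overlap of the libraries, and was not called (edgeR adjusted p = 0.21). HsfA3 (Solyc09g009100) had 48.6 ± 11.9 CPM in af and 33.9 ± 3.2 CPM in CHI4 (SD, n = 4 each) (adjusted p = 0.0591, and 0.0402 with the block). In each of the next 2 lists a single gene was called, where 11.2% of all genes were lower. Of 4 genes of the abscisic acid response 1 fell, ASR1 (Solyc04g071610), a small protein of ripening and drought, with 77.8, 68.5, 73 and 55.9 CPM in af, against 129, 158, 119 and 118 CPM in CHI4 and a fall by 0.93 (SE 0.22, edgeR adjusted p = 0.00525) that library totals ended (log2 -0.47). Of 6 genes of sucrose use 1 fell, the sucrose synthase SUS4 (Solyc09g098590), with 20.4 ± 3.9 CPM in af and 32.3 ± 9.27 CPM in CHI4 (SD, n = 4 each) (log2 -0.67, adjusted p = 0.0482, and 0.0564 with the block). SUS4 was lower in 3 of 4 collections. It lost its call on library totals, and on leaving out any 1 of 8 libraries (adjusted p = 0.0511 to 0.177): CHI4 collections 1, 2 and 3, CHI9 collections 2 and 4, and af collections 2, 3 and 4.

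**Figure D4:**
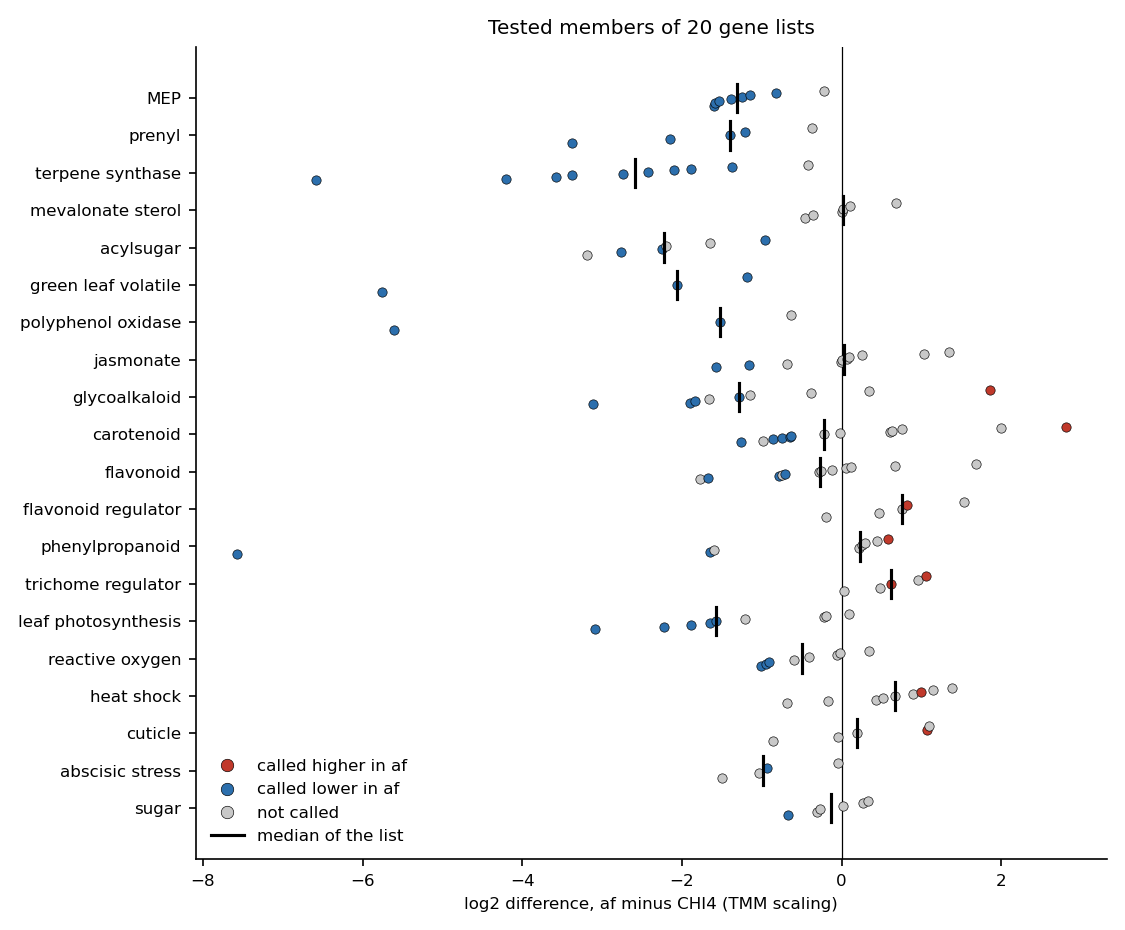
Log2 differences, af minus CHI4 with TMM scaling, of the tested members of 20 gene lists, one row per list. Red points were called higher in af, blue points lower and grey points not called, and the black bar is the median of the list. All called members of the MEP, prenyl, terpene synthase, acylsugar, green leaf volatile and polyphenol oxidase lists lie left of 0, with medians of -1.32, -1.40, -2.58, -2.22, -2.06 and -1.52, against 0.08 for all genes.

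As shares of all gene counts, with no scaling, the terpene and green leaf volatile lists were also lower in af. Terpene synthases took 0.434% ± 0.0388 in af and 1.35% ± 0.188 in CHI4 (SD, n = 4 each), prenyl transferases and IDI 0.395% ± 0.047 in af and 1.21% ± 0.0876 in CHI4, and MEP genes 0.718% ± 0.0289 in af and 1.33% ± 0.14 in CHI4. Green leaf volatile genes took 1.23% ± 0.148 in af and 2.86% ± 0.208 in CHI4 and polyphenol oxidases 0.26% ± 0.0454 in af and 0.565% ± 0.0312 in CHI4. In these 5 lists every af library lay below every CHI4 library. Flavonoid genes took 2.15% ± 0.278 in af and 1.97% ± 0.335 in CHI4, and there the libraries overlapped. Trichome regulators took 0.122% ± 0.0159 in af and 0.0742% ± 0.0111 in CHI4, with every af library above every CHI4 library. These sums are led by their most abundant members and carry no test.

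**Figure D5:**
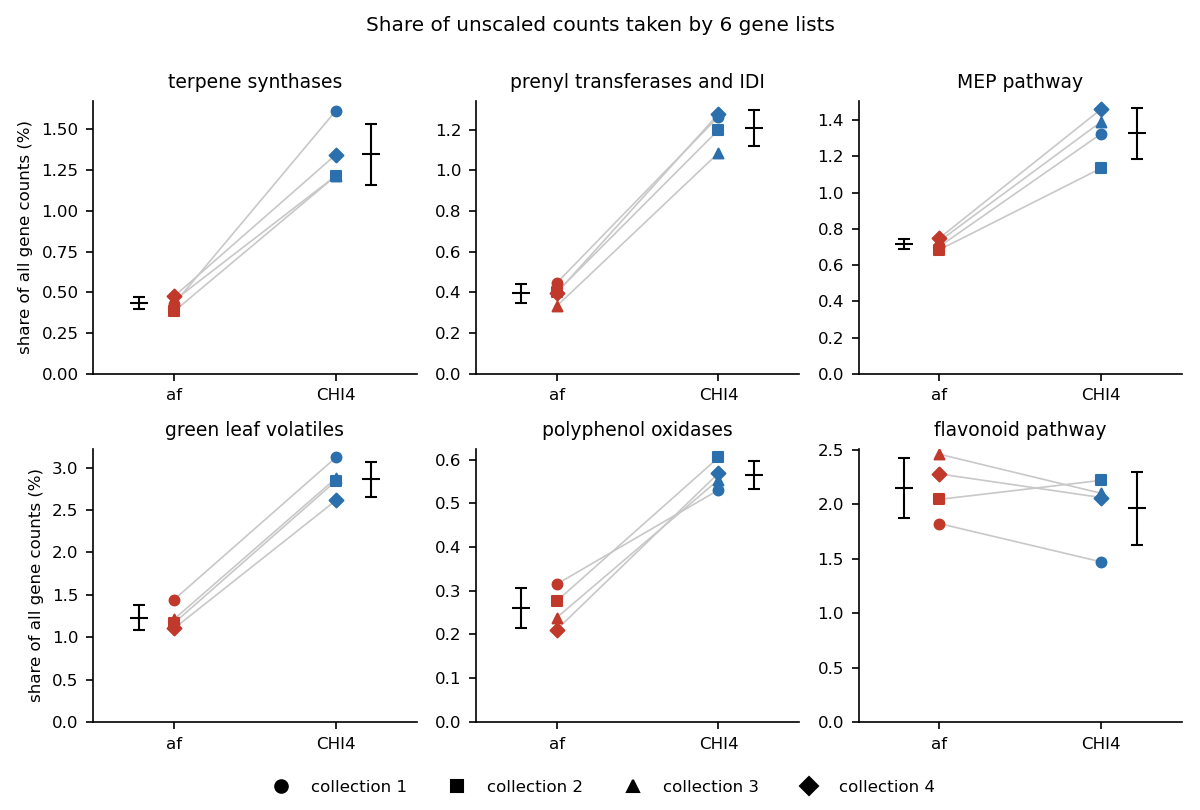
Share of all gene counts (percent, no scaling) taken by 6 gene lists in each library, with af on the left, CHI4 on the right, grey lines joining the libraries of a collection and bars for the mean ± SD of 4 libraries. The first 5 panels show af below CHI4 in 4 of 4 collections, such as 0.434% ± 0.0388 against 1.35% ± 0.188 for terpene synthases, and the flavonoid panel shows overlapping groups at 2.15% ± 0.278 and 1.97% ± 0.335.

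Among the 10 largest rises there was no gene that the lists name, and among the 10 largest falls there were 3, ADH2, the PPO locus Solyc02g078650 and TPS17. The called genes that averaged 5 CPM or more and did not overlap numbered 1151 among the rises and 1718 among the falls. The largest rise was 8.51 in Solyc03g116820, with 12.6, 19.1, 13.6 and 9.32 CPM in af, against 0.127, 0, 0.0225 and 0 CPM in CHI4 and 5 counts over the 4 CHI4 libraries (SE 0.84, edgeR adjusted p = 9.16e-07). The largest fall was -6.90 in Solyc12g096240, with 0.145, 0.0317, 0.461 and 0 CPM in af, against 21.8, 14.4, 25.4 and 17.3 CPM in CHI4 (SE 0.81, edgeR adjusted p = 6.11e-05). The most abundant gene that rose was Solyc02g082930, with 3714, 3566, 4538 and 2313 CPM in af, against 1892, 2069, 2422 and 1915 CPM in CHI4 and a log2 difference of 0.77 (SE 0.20, edgeR adjusted p = 0.0088). The most abundant gene that fell was Solyc08g023660, which alone held 16216, 12417, 22659 and 15219.7 CPM in af, against 78033, 51855, 60915 and 72887 CPM in CHI4 and fell by 1.99 (SE 0.21, edgeR adjusted p = 1.63e-06). Genes seen in 1 genotype only, with at least 1 CPM in all 4 of its libraries and 0 counts in the other, were 2 in af and 0 in CHI4. Solyc09g074500 had 4.11, 2.24, 1.54 and 2.7 CPM in af, against 0, 0, 0 and 0 CPM in CHI4, and also 0 counts in CHI9, at least 130.8-fold more in af over the group. Solyc11g005710 had 1.95, 1.44, 2.33 and 1.61 CPM in af, against 0, 0, 0 and 0 CPM in CHI4, at least 90.5-fold more in af, but up to 1.52 CPM in CHI9.

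The calls were spread over the genome. On chromosomes 1 to 12, taken from the locus numbers, 7.33% to 10.2% of tested genes were higher and 9.58% to 12.3% lower. Runs of at least 5 neighbouring tested genes called in the same direction were 3, namely 6 lower genes on chromosome 5, 5 lower on chromosome 1 and 5 higher on chromosome 12. They were found by a search and carry no test.

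The 2 earlier and the 2 later collections were also fitted apart. Collections 1 and 2 alone gave 378 higher and 863 lower genes, and collections 3 and 4 alone gave 592 higher and 1030 lower. Of the genes called, 824 were called in both, that is 66.4% of 1241 and 50.8% of 1622, and all 824 had the same sign. The test of the difference between these periods called 1 gene (0.00546% of those tested), with 299 genes (1.63%) at an unadjusted p under 0.05. That share is under the 5% that would be reached with no difference, and genes that were not called may still differ between periods. The called gene, Solyc10g084400, had 129.8, 119, 109 and 115 CPM in af, 18.6, 24.1, 31.7 and 23.6 CPM in CHI9 and 31.5, 24.7, 154 and 274 CPM in CHI4. Its af libraries were alike, while in CHI4 collections 3 and 4 were higher than collections 1 and 2. The log2 difference between periods was -3.08 (adjusted p = 0.0068), a call lost without CHI4 replicate 1 (0.0742), CHI4 replicate 2 (0.226), af replicate 3 (0.11) or af replicate 4 (0.0831).

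Few genes were called between the 2 complemented lines. The CHI9 library of collection 2 was the shallowest of the 12, with 8.99 M gene counts, and genes that were not called may still differ. Between CHI9 and CHI4 17 genes were called (0.0928%), 11 higher (0.06%) and 6 lower (0.0327%) in CHI9, with 92 by DESeq2, 36 with the collection as a block and 9 by limma-voom, and none of the 17 was a member of the lists. Of the 17, 9 were also called between af and CHI4, and the 2 comparisons share the CHI4 libraries. Solyc07g007040 had 96.9, 99.7, 81.4 and 114 CPM in af, 42.6, 39.9, 50.7 and 57.3 CPM in CHI9 and 11.5, 14.7, 11.2 and 13.5 CPM in CHI4, so that the 3 genotypes did not overlap. It rose by 2.95 in af against CHI4 (SE 0.17, edgeR adjusted p = 1.04e-09), by 1.04 in af against CHI9 (adjusted p = 0.000118) and by 1.91 in CHI9 against CHI4 (adjusted p = 5.76e-06). Solyc08g081700 had 164, 181, 341 and 208 CPM in af, 303, 207, 238 and 266 CPM in CHI9 and 72.6, 80.4, 75.6 and 81.4 CPM in CHI4. The af and CHI9 libraries overlapped in this gene and both lay above CHI4, with a log2 difference of 1.53 between af and CHI4 (adjusted p = 1.41e-05), -0.18 between af and CHI9 (adjusted p = 0.556) and 1.71 between CHI9 and CHI4 (adjusted p = 0.000316). Solyc03g044930 had 30.2, 30.8, 28.6 and 20.4 CPM in af, 92.4, 80.7, 101 and 92.8 CPM in CHI9 and 557, 126, 394 and 488 CPM in CHI4, with CHI9 between the others. It fell by 3.83 in af against CHI4 (SE 0.36, edgeR adjusted p = 7.99e-06) and by 2.09 in CHI9 against CHI4, a call near the threshold (adjusted p = 0.0458) that was lost without 11 of the 12 libraries in turn, all but CHI4 replicate 2.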

How the data were processed

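Per the labels' protocols, RNA of type VI gland cells came from an RNeasy kit and TruSeq RNA kits gave the libraries. The deposited files hold whole-number read counts per gene model, 1 file per lane, made by the authors with Trimmomatic, TopHat2, SAMtools and HTSeq, per the submitters' processing notes. No version, genome build, strand setting or rule on read pairs is given in the sources used here. Reads of overlapping and antisense genes may thus be left out as ambiguous or counted for the wrong gene. Lanes were summed. A file lists 34725 gene models (23982 of them with reads in the 8 libraries) and 5 summary entries, left out of library sizes and tests: reads in no gene took 10.5% in af and 9.84% in CHI4, ambiguous reads 4.36% and 6.27%, and reads with several alignments 6.30% and 5.84%. Ambiguous reads ran from 3.67% to 5.39% in af libraries and from 6.04% to 6.68% in CHI4 libraries, with no overlap.

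Counts of 12 libraries were fitted in R 4.3.3 with edgeR 4.0.16 (filterByExpr, TMM, robust quasi-likelihood, 3 genotypes, no block), which left 18326 genes. P-values are Benjamini-Hochberg adjusted over all of them with a threshold of 0.05, measure the spread between these collections, and the log2 differences come from the edgeR fit. Their standard errors (SE) were worked back from the test, as the absolute log2 difference over the square root of its F statistic. DESeq2 1.42.0 and limma 3.58.1 (voom) were alternatives. The scripts were tested on simulated data. Single values were compared by exact permutation tests (scipy). A count of 0 allows up to 0.144 CPM in the shallowest of the 8 libraries (3 counts). Floors cover counting error only and take counts as independent. The lanes differed by more than such error, so the folds given as at least may be too large.

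The genotypes share numbered sampling times in the labels, and these pair the samples. Between af and CHI4 libraries of a collection, the deviations from each genotype's mean had correlations of 0.0331 to 0.135, against -0.125 to 0.0476 in other pairs.

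The members and lists were chosen with earlier results of these data known. Named are CHI1, members of 20 gene lists, the 10 largest rises and falls (mean of at least 5 CPM, no overlap), the 10 most abundant called genes in each direction, genes seen in 1 genotype, and genes called between the lines or periods, with at most 2 unnamed loci per direction. Gene names come from general knowledge of locus numbers. RefSeq's table (assembly SLM_r2.1) shares 0 identifiers with the files. Of 173 loci, 109 symbols are in it, 106 on the same chromosome, where 459 of 460 pairs stand in the same order. The 3 on another chromosome were dropped, and 64 symbols were not in the table.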

Additional observations from a re-analysis of the deposited data

Results flagged for a closer look

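Of 188 groups of 4 libraries checked among the named genes, the library totals and the share of the most abundant genes, 9 had 1 library set apart from the other 3 by more than the 95% limit of Dixon's test, 4.79%, where chance gives about 5%. In CHI4 replicate 2, DXR stood at 990 CPM against 1855 to 1944 CPM in the other CHI4 libraries, and AOC at 42.2 CPM against 53.2 to 55.3 CPM. The same library was the highest in AACS1 (4.44 CPM against 1.60 to 1.98 CPM), in CER6 (66.6 CPM against 40.5 to 42.2 CPM) and in DFR (1.85 CPM against 0.127 to 0.300 CPM). CHI4 replicate 3 was the highest for the HMG-CoA reductase locus Solyc03g032020 (129.5 CPM against 115.3 to 117 CPM), and CHI4 replicate 4 for the Rubisco locus Solyc03g034220 (294 CPM against 248 to 252 CPM). In af, replicate 1 was the highest for the CAB locus Solyc03g005770 (4.46 CPM against 3.00 to 3.17 CPM) and replicate 2 for Solyc03g005780 (5.46 CPM against 2.01 to 2.59 CPM).

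The 4 genes below were named because they had passed these tests, so their number is not a result. Between CHI9 and CHI4 17 genes were called in all, and between the periods 1. Solyc10g084400 differed between the periods by -3.08 on the log2 scale, with af above CHI4 in collections 1 and 2 and below it in collections 3 and 4. The difference between af minus CHI4 and af minus CHI9, which is CHI9 minus CHI4, was 1.71 for Solyc08g081700, 1.91 for Solyc07g007040 and -2.09 for Solyc03g044930.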

How the results depend on the processing

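Between af and CHI4, collections 1 and 2 alone gave 378 higher and 863 lower genes, collections 3 and 4 alone 592 and 1030, library totals 5704 and 862, an adjusted p under 0.01 766 and 1315, and leaving out collection 4 817 higher. Leaving out 1 library gave 1109 to 1952 higher and 1615 to 2248 lower. With the collection as a replicate block 2084 were higher and 2495 lower. Between CHI9 and CHI4, DESeq2 gave 47 higher and 45 lower genes, limma-voom 7 and 2, the block 20 and 16, an adjusted p under 0.01 6 and 2, and leaving out 1 library 6 to 12 and 3 to 7. The difference between periods gave 3 higher and 10 lower genes with no filter on low counts, and 0 to 2 lower without 1 library. The share of the 100 most abundant genes differed by -12.3 to -10.4 percentage points without 1 library (exact permutation p = 0.0571, the smallest of 35 arrangements) and by -11.2 over pairs within collections (exact p = 0.125, the smallest of 16). Genes with reads in af only were 4 at 0.5 CPM and 0 at 5 CPM.

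Genes that were not called turned sign in places. On library totals CHS1 stood at 0.169, CHS2 at 0.195, FLS at 0.320, DXS1 at 0.2505, TPS8 at 0.0301, APX1 at 0.0657 and the Rubisco locus Solyc03g034220 (RBCS-03g034220) at 0.277. Without 1 library F3H ranged from -0.0581 to 0.162, FLS from -0.367 to 0.0286, F3H-prime from -0.0381 to 0.252 and MYC1 from -0.0495 to 0.101. F3H-prime was at -0.027 in collections 3 and 4. MYC1 was at -0.0299 in collections 1 and 2, -0.026 without collection 4, -0.0074 with lane 2 alone for all libraries, -0.0056 with it for collection 4, and -0.0062 with that and the block. Of 71 named genes called between af and CHI4, library totals ended 7 calls and the block 1 (SUS4), and the block's other changes of a call stand beside their genes. Collections 1 and 2 alone ended 14 of the calls, collections 3 and 4 alone 12, and leaving out collection 4 ended 5. At an adjusted p under 0.01, 9 were lost. Over 25 planned fits, without library totals and that stricter threshold, 51 of the 71 kept their call throughout and 0 changed sign. The causes were not tested. Depth limits genes near the floor, such as TPS3 and the C4H locus, with 39 and 84 counts over the 4 CHI4 libraries.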
